A study of Mus musculus with 4 samples.

Results

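The replication-dependent histone genes were taken as the genes of the mm9 annotation whose symbol begins with Hist1h, Hist2h or Hist3h. This gave 69 of 37310 annotated genes, which overlap 17 of the 66382 bins of 40 kb into which the genome was divided, and all 17 bins were kept by the authors' correction. By class they are 6 H1, 20 H2A, 19 H2B, 12 H3 and 12 H4 genes, and 66 of the 69 are annotated as protein coding. On chromosome 13 they form a pair of Hist1 sub-clusters. The proximal sub-cluster (chr13:21800001-22160000) holds 24 genes in 5 bins, from Hist1h2bl to Hist1h2bj, and the distal sub-cluster (chr13:23600001-24040000) holds 31 genes in 7 bins, from Hist1h4h to Hist1h2aa. Between them lies a gap of 1440 kb (chr13:22160001-23600000) with 92 annotated genes, of which 37 are vomeronasal receptor genes and 0 are histone genes. The Hist2 cluster on chromosome 3 (chr3:96000001-96120000) holds 10 genes in 3 bins, namely Hist2h2ab, Hist2h2ac, Hist2h2be, Hist2h3c2, Hist2h2aa2, Hist2h2aa1, Hist2h3c1, Hist2h4, Hist2h3b and Hist2h2bb. The Hist3 cluster on chromosome 11 (chr11:58760001-58800000) holds Hist3h2ba, Hist3h2bb-ps and Hist3h2a in 1 bin. Hist1h2al lies alone on chromosome 13 (chr13:51280001-51320000).

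The contacts were measured by in situ Hi-C with the restriction enzyme HindIII in male mouse embryonic stem cells (mESCs), which asks how often a pair of places in the genome were cut and ligated to each other in the fixed nucleus. There were 2 groups, wild type (WT) and Firre KO, each with 2 technical libraries that the authors pooled into 1 contact matrix, so no difference between the groups has a replicate check and no test was made. WT was the N3 line kept in 2i medium. By the study's methods the Firre KO cells carried a deletion of the whole locus of Firre, a long noncoding RNA gene on the X chromosome, and were grown in 2i medium on irradiated feeder fibroblasts that were removed by plating before the assay. Genotype, feeder culture and cell line differ together and cannot be told apart in any comparison of the matrices. The study's results text describes both cultures as grown on feeders, unlike its methods.

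Depth was 65611035 read pairs in WT, of which 16.1% joined different chromosomes, and 46635652 in the Firre KO-labelled matrix, of which 35.6% did. The bin that lies wholly inside Firre (chrX:47920001-47960000) held 1550 read pairs in WT and 1144 in the Firre KO-labelled matrix, or 0.171% and 0.144% of those within the X chromosome. The deletion was not visible there, and that matrix is called by its label throughout.

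Replication-dependent histone genes supply the core histones H2A, H2B, H3 and H4 and the linker histone H1 for the chromatin made in S phase. Their messenger RNAs end in a stem-loop in place of a poly(A) tail, and the stem-loop binding protein Slbp and the U7 small nuclear RNP recognise the ends of these transcripts. The genes are transcribed and their RNAs processed at the histone locus body, a nuclear body organised by NPAT, and most of them lie in a major cluster that in mammals is split by unrelated genes. In mouse that interruption holds vomeronasal receptor genes, which are expressed in sensory neurons of the vomeronasal organ.

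The stem-loop is shown first because it defines genes of this type. Its forms were picked as the inverted repeats of 16 bases that at least 2 members held in their last 100 bases or the 100 bases after the annotated end. Their share among the members is set by that choice and is a description. They are given here, with the 6-base stem arms in capitals and the 4-base loop in lower case.
Form 1: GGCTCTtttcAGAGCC
Form 2: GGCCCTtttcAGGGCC
Form 3: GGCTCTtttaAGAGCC
Form 4: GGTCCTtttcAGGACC
Over that same stretch, form 1 was found in 25 members, form 2 in 7, form 3 in 6 and form 4 in 2. Any of these forms was found in 40 of 69 members (58.0%), against 3 of 37241 other genes (0.00806%). The 3 are Hist4h4, a histone H4 gene outside the clusters, and the pseudogenes Gm12957 and Gm12260, the last of which lies in the Hist3 bin. By class the letters were present in 3 of 6 H1, 12 of 20 H2A, 10 of 19 H2B, 6 of 12 H3 and 9 of 12 H4 genes. Form 1 stands for example in Hist1h1b (chr13:21871706-21871721, mm9, minus strand), Hist1h2ak (chr13:21845251-21845266, minus strand) and Hist1h3h (chr13:21809964-21809979, plus strand), form 3 in Hist1h2bl (chr13:21807587-21807602, minus strand) and form 4 in Hist1h4j (chr13:21827306-21827321, plus strand). A member without these exact letters may hold another form of the stem-loop or have a differently annotated end.

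Many H2A and H2B genes share a promoter. Among the members 12 divergent pairs had starts within 500 bases of each other, and all 12 joined an H2A to an H2B gene, with 167 to 305 bases (median 227.5) between the starts. Of these, 7 pairs lie in the proximal sub-cluster, 4 in the distal sub-cluster and 1 in the Hist2 cluster. The stretches between the starts are given for 3 pairs, on the plus strand of mm9: the first and second lie in the proximal and distal bins with the highest contact between the sub-clusters in WT, and the third lies in the distal bin with the lowest. Capitals mark the TATA box letters TATAAA, the CCAAT box and the octamer ATGCAAAT on either strand. The third stretch is printed for 300 of its 305 bases.
Hist1h2ah and Hist1h2bk (chr13:22127513-22127689): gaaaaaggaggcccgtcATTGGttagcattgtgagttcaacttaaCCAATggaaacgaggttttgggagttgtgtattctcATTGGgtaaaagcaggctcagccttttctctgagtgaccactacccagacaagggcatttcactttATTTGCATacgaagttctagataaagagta
Hist1h2ae and Hist1h2bg (chr13:23663090-23663264): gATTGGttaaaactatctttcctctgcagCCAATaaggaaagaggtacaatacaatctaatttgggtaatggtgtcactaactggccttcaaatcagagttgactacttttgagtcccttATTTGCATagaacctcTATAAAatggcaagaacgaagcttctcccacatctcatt
Hist1h2ba and Hist1h2aa (chr13:24026026-24026325): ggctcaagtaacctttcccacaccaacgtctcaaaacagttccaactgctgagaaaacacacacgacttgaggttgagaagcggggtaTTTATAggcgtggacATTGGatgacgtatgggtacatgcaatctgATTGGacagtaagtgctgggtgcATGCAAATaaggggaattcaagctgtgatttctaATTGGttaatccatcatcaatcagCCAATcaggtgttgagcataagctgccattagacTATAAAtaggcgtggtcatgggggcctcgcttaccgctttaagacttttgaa
In the window from 250 bases before to 50 bases after each start, TATAAA was found in 38 of 69 members (55.1%) and 16.1% of other genes, CCAAT in 59 (85.5%) and 38.3%, and the octamer in 16 (23.2%) and 2.23%, both strands searched in each case. The octamer, known as a binding sequence of Oct factors in H2B promoters, was held by 9 H2B and 7 H2A genes and by no H1, H3 or H4 gene. CCAAT was present in 19 of 19 H2B and 6 of 6 H1 windows and in 4 of 12 H4 windows. The windows of a divergent pair overlap, so the same letters can count for both genes. The octamer printed between Hist1h2ah and Hist1h2bk, for example, counts for both. These matches describe letters, not bound sites.

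The proximal and distal Hist1 sub-clusters, 1440 kb of other genes apart, contacted each other several times as often as the average pair of chromosome 13 bins at the same distances, and did so in both matrices. Contact is given as the mean, over the pairs of bins, of the corrected value divided by the mean corrected value of all kept bin pairs of chromosome 13 at the same distance (observed over expected), with a 95% interval that covers counting error only. Between the sub-clusters observed over expected was 5.52 in WT (4.79 to 6.38, 256 read pairs against 42.7 expected) and 5.23 in the Firre KO-labelled matrix (4.40 to 6.22, 198 read pairs against 38.3 expected). The log2 ratio of the Firre KO-labelled matrix over WT was -0.08 (-0.39 to 0.23), so the counting error of the 2 values covers the difference. The size of the contact depended on the bins taken. Over all bins from the first to the last gene of each sub-cluster it was 3.35 and 3.34, and with clusters divided at gaps of 200 kb, which leaves 1 proximal bin, it was 8.34 and 3.68, a log2 ratio of -1.18. Of the 35 bin pairs, 29 reached 2 in WT (median 4.26) and 28 in the Firre KO-labelled matrix (median 4.98), and 2 held no read pair in each, while 15.1% and 17.0% of single bin pairs of the autosomes at these distances reached 2. Over 56373 windows of the same shape on the 19 autosomes, 3.52% in WT and 11.9% in the Firre KO-labelled matrix had a mean of at least 2, and 27.9% changed by at least 1 on the log2 scale in either direction.

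**Figure D1:**
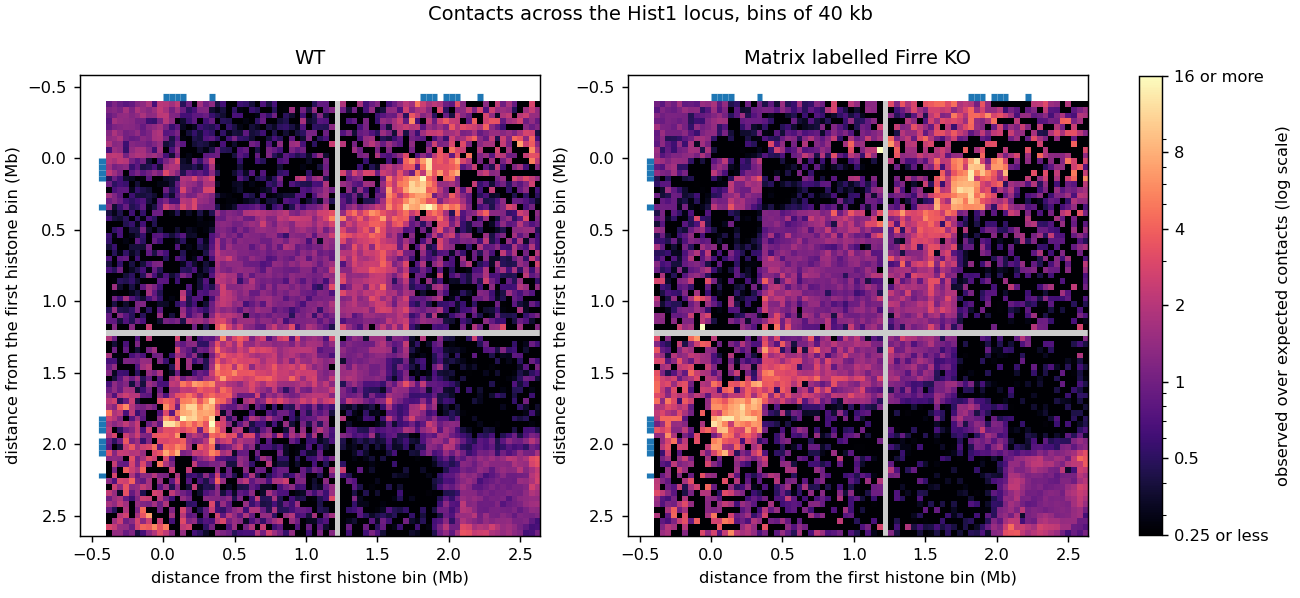
Observed over expected contacts between bins of 40 kb across the Hist1 locus (colour, log scale), WT on the left and the Firre KO-labelled matrix on the right, with both axes in Mb from the first histone bin, blue marks at the bins with histone genes and grey lines at a bin the correction left out. The bright patch off the diagonal is the contact between the sub-clusters (5.52 in WT and 5.23 in the Firre KO-labelled matrix), and the square of the vomeronasal genes lies between them.

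Few windows elsewhere had a value as high. In WT 1 of the 56373 windows did, and in the Firre KO-labelled matrix 156 did (0.277%), 9 of them on chromosome 13, with a highest value of 8.99. The only other place as high in both was on chromosome 11 (chr11:9160001-11400000), with 5.57 and 8.67. Among 791 windows whose arms were like the sub-clusters in GC content and gene number, 0.759% in WT and 2.53% in the Firre KO-labelled matrix reached 2, the medians were 0.827 and 0.602, the highest values were 3.10 and 3.82, and 0 were as high as the histone genes. The median log2 ratio of these like windows was -0.45, lower than the -0.08 of the sub-clusters, and 26.0% of them changed by at least 1 in either direction.

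The compartment score is a leading principal component of the WT contacts, oriented so that gene-dense stretches are positive. On each chromosome the component most correlated with gene number was taken, so its link to gene density is partly set by that choice. The score set the sub-clusters apart from most of the gap. The WT scores were used for both matrices, although the scores computed from each correlated with r = 0.446 on chromosome 13, so values of the Firre KO-labelled matrix sorted by score rest on scores that it shares only in part. All 16 histone bins of the clusters had positive scores. So did 43.4% of all autosomal bins and 65.3% of bins like the histone bins in GC content with at least 1 gene. Scores were computed in bins of 200 kb, so neighbouring histone bins can share a score. The gap had a median of -0.921 and positive scores in 17.1% of its bins. The positive ones were the first bin of the gap, at 0.556, and those from chr13:23400001 to the distal sub-cluster, at 0.686. The means over the arms were 0.781 and 0.781 for the proximal and distal sub-clusters and -0.720 for the gap, and 84 windows on 12 chromosomes had the same arrangement, with scores of at least 0.5 in both arms and at most -0.5 between. Windows that start at neighbouring bins overlap, so the 84 need not be separate places. Their medians, 1.31 in WT and 1.14 in the Firre KO-labelled matrix, lay above those of windows in general (0.913 and 0.723), 4.76% and 17.9% of them reached 2, their highest values were 2.37 and 2.61, and 2.38% changed by at least 1 on the log2 scale in either direction. Of the 84, 0 were as high as the Hist1 contact. Among 4426 windows with scores of at least 1.06 in both arms, above those of the sub-clusters, whatever lay between, the medians were 0.761 and 0.490, the highest values 2.41 and 4.98, and 0 were as high, although 4.98 lies within the interval of the Hist1 value in that matrix.

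Along chromosome 13 the partner was also the peak. From the proximal sub-cluster, 480 windows of the distal sub-cluster's shape within 10 Mb did not overlap the partner, and their highest values were 2.76 in WT and 3.63 in the Firre KO-labelled matrix. From the distal sub-cluster the highest of 484 such windows were 2.17 and 3.47. None of these windows, in either direction or matrix, was as high as the partner. The peak seen from the proximal sub-cluster was not centred on the histone genes, however. A window that started 160 kb before the distal sub-cluster, and so took in the end of the gap, reached 6.06 in WT and 5.97 in the Firre KO-labelled matrix.

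**Figure D2:**
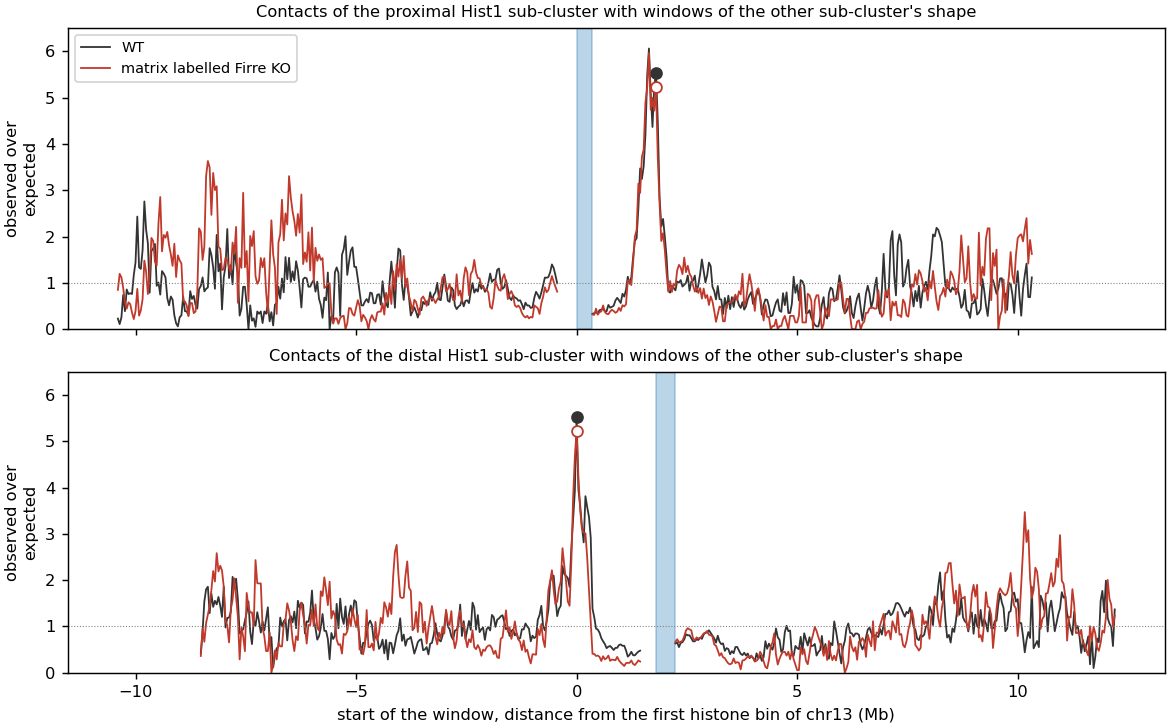
Observed over expected contacts of the proximal (upper) and distal (lower) Hist1 sub-cluster with windows of the partner's shape, by the start of the window in Mb from the first histone bin of chromosome 13; the shaded band is the sub-cluster itself, the circles are its partner, and the lines are WT and the Firre KO-labelled matrix. In the upper panel the lines peak at 6.06 and 5.97, 160 kb before the partner, and away from the partner they stay at or below 2.76 and 3.63.

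Bin by bin, each of the 5 proximal bins contacted the distal sub-cluster. Their values ran from 4.54 to 8.34 in WT (median 4.71) and from 3.68 to 6.60 in the Firre KO-labelled matrix (median 5.56). The bin of Hist1h2bl, Hist1h2ai, Hist1h3h, Hist1h2aj, Hist1h2bm and Hist1h4j, the outermost of the locus, stood at 5.45 (3.89 to 7.50, 41 read pairs) in WT and 5.56 (3.91 to 7.76, 39 read pairs) in the Firre KO-labelled matrix, the second highest of the 5 in WT and the middle value in the Firre KO-labelled matrix. The bin that faces the gap, which holds Hist1h2ah, Hist1h2bk, Hist1h4i, Hist1h2ag and Hist1h2bj, was the highest of the 5 in WT, at 8.34 (6.83 to 10.1, 109 read pairs), and the lowest in the Firre KO-labelled matrix, at 3.68 (2.69 to 4.94, 49 read pairs). Its log2 ratio was -1.18 (-1.68 to -0.68), and in uncorrected read pairs, where the values were 7.57 and 4.98, it was -0.60. As a block, the other 4 proximal bins gave 4.82 (4.0 to 5.81) and 5.62 (4.62 to 6.82), a log2 ratio of 0.22 (-0.15 to 0.59).

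Of the 7 distal bins, the outermost had the lowest contact with the proximal sub-cluster. The other 6 ran from 3.99 to 11.6 in WT and from 3.82 to 10.2 in the Firre KO-labelled matrix. The highest were those that face the gap. The bin of Hist1h4h, Hist1h2af, Hist1h3g, Hist1h2bh and Hist1h3f stood at 8.02 (5.45 to 11.6) and 10.2 (6.72 to 15), and that of Hist1h4f to Hist1h2be, which holds 10 histone genes, at 11.6 (9.22 to 14.7) and 7.08 (5.22 to 9.58). The outermost bin (chr13:24000001-24040000) holds only Hist1h2ba and Hist1h2aa, the testis-specific H2B and H2A genes whose shared promoter is printed above. It stood at 0.695 (0.120 to 2.40) in WT and 0.871 (0.146 to 3.22) in the Firre KO-labelled matrix, on 3 read pairs each, within counting error of the average pair of bins, so it is not shown to lack contact. Its interval lay below those of the other 6 distal bins in WT. In the Firre KO-labelled matrix it overlapped several of them, whose lower limits were 2.23, 2.40 and 2.76. Both genes hold a stem-loop, form 3 in Hist1h2ba (chr13:24025599-24025614, minus strand) and form 1 in Hist1h2aa (chr13:24026760-24026775, plus strand). Without this bin the contact between the sub-clusters was 6.33 in WT and 5.95 in the Firre KO-labelled matrix.

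The bins that hold no histone gene show how sharply the contact followed the histone genes, and it did not follow them exactly. Inside the proximal sub-cluster 4 such bins, from Mir1983 through the zinc finger gene Zfp184 to the serine protease gene Prss16, ran from 3.08 to 3.57 in WT and from 3.22 to 3.93 in the Firre KO-labelled matrix, and all 4 were lower than each of the 5 histone bins in WT. In the Firre KO-labelled matrix 3 of the 4 were higher than the bin of Hist1h2ah to Hist1h2bj. Inside the distal sub-cluster the bin with a U6 gene stood at 3.49 and 2.89, while the 3 bins from Trim38 to Slc17a4, which hold genes of the SLC17 phosphate transporter family, ran from 0.483 to 1.19 and from 0.283 to 0.649. The contact thus was lower from those bins on, and the bin of Hist1h2ba and Hist1h2aa lies beyond them. Outside the locus, the 200 kb before the proximal sub-cluster had 1.49 (1.12 to 2.0) and 0.95 (0.573 to 1.62) with the distal sub-cluster, and the 200 kb after the distal sub-cluster had 0.883 (0.555 to 1.43) and 0.843 (0.450 to 1.55) with the proximal one.

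The gap itself fell into a pair of parts, which were separated, after their values were seen, at the end of the last vomeronasal gene. The vomeronasal part (1200 kb) was depleted of contacts with the proximal sub-cluster, at 0.560 (0.472 to 0.686) in WT and 0.451 (0.371 to 0.589) in the Firre KO-labelled matrix. The last 6 bins (240 kb), which hold no vomeronasal gene, stood at 3.75 (3.19 to 4.41) and 4.26 (3.63 to 5.02). The 3 bins nearest the distal sub-cluster, with Abt1, an activator of basal transcription, and the butyrophilin genes Btn1a1 and Btn2a2, ran from 4.66 to 5.11 on 36 to 58 read pairs in WT and from 4.94 to 6.20 on 33 to 56 read pairs in the Firre KO-labelled matrix. They lay within the range of those 6 distal histone bins, so the high contact ran from the end of the gap into the distal sub-cluster and was not particular to bins with histone genes. Of the last 6 bins of the gap, the first had a WT compartment score of -1.10 and the others 0.686, positive like those of the histone bins.

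**Figure D3:**
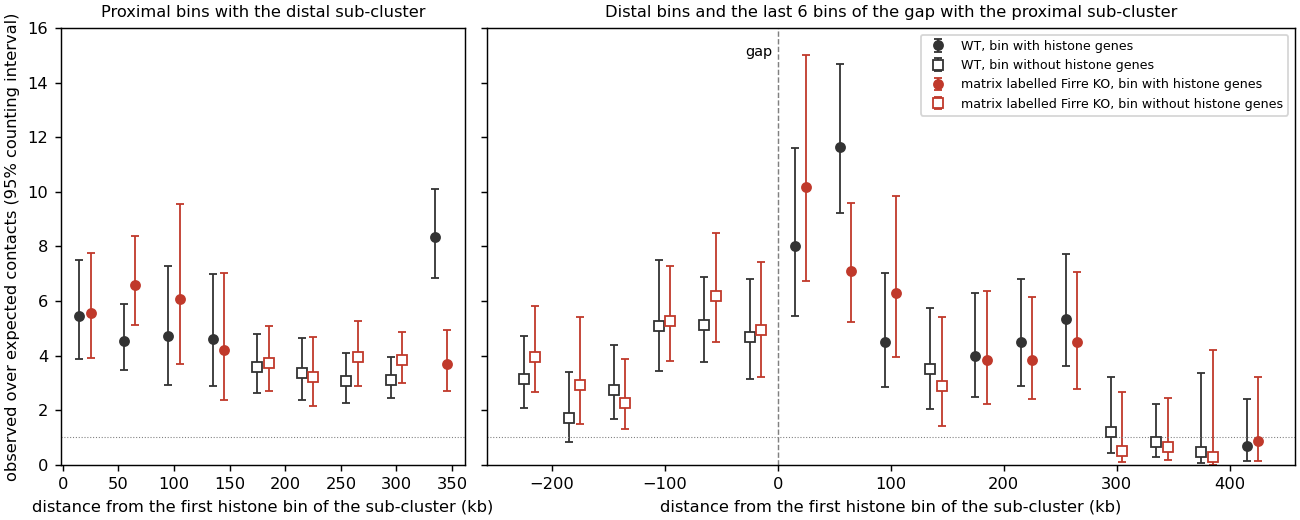
Observed over expected contacts of each proximal bin with the distal sub-cluster (left) and of each distal bin and the last 6 bins of the gap with the proximal sub-cluster (right), by distance in kb from the first histone bin of the sub-cluster; filled circles are bins with histone genes, open squares are bins without, bars are 95% counting intervals, and the dotted line is 1. The bins of Abt1, Btn1a1 and Btn2a2 just before the dashed line stand between 4.66 and 5.11 in WT, and the 4 rightmost bins, the last of them that of Hist1h2ba and Hist1h2aa, stand between 0.483 and 1.19.

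The sub-clusters share stretches of identical sequence, where a read cannot be assigned with certainty, and the share of 36-base words found in both was counted within 500 bases of HindIII sites, where reads start. It ran from 0.476% of the bases in the bin of Hist1h2be and Hist1h1e to 10.7% in the bin of Hist1h2ah to Hist1h2bj. The 3 bin pairs with the highest WT values were that of Hist1h2ah to Hist1h2bj with that of Hist1h4f to Hist1h2be (20.3 on 43 read pairs; 6.05 on 16 in the Firre KO-labelled matrix), that of Hist1h4n, Hist1h2ap and Hist1h2br with that of Hist1h4h to Hist1h3f (15.6 on 9; 13.8 on 6), and that of Hist1h2bl to Hist1h4j with that of Hist1h4f to Hist1h2be (12.7 on 15; 12.4 on 16). The first of these joined the bins with the most shared sequence of each sub-cluster, 10.7% and 9.86%. Without those bins the contact was 4.04 (3.21 to 5.08, 96 read pairs) in WT and 5.33 (4.24 to 6.67, 107 read pairs) in the Firre KO-labelled matrix. The bin of Hist1h2be and Hist1h1e, with the least shared sequence, stood at 4.49 (2.85 to 7.02) and 6.30 (3.95 to 9.84), and in the bins of Abt1, Btn1a1 and Btn2a2 the share was 1.76%, 1.54% and 0.731%.

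Contacts within each sub-cluster lay nearer the average for their distance than those between the sub-clusters, and those within the proximal sub-cluster changed side of the average with the correction. Within the proximal sub-cluster observed over expected was 1.59 (1.39 to 1.83) in WT and 1.34 (1.12 to 1.60) in the Firre KO-labelled matrix, and 0.845% and 8.85% of 6631 like windows were as high. In uncorrected read pairs the values turned to 0.692 and 0.776, below 1, so no excess is read from them. Within the distal sub-cluster the values were 0.997 (0.934 to 1.07) and 0.728 (0.659 to 0.809), a log2 ratio of -0.45 (-0.62 to -0.29) that was -0.26 in uncorrected read pairs. Of 5092 like windows, 4.95% had a log2 ratio as low. The bins of the Hist2 cluster contacted each other at 0.897 (0.779 to 1.03) and 0.797 (0.668 to 0.95). The gap had 1.61 (1.57 to 1.66) and 1.45 (1.40 to 1.5) among its own bins, with 0.162% and 0.648% of 2469 like windows as high, and in uncorrected read pairs 1.27 and 1.07.

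Among the blocks of the locus the largest difference between the matrices was in the contact of the distal sub-cluster with the gap. It was 0.704 (0.646 to 0.769, 1444 read pairs) in WT and 0.304 (0.260 to 0.359, 541 read pairs) in the Firre KO-labelled matrix, a log2 ratio of -1.21 (-1.46 to -0.97). Of 56773 windows of that shape 3.13% reached a log2 ratio of 1 in either direction, 1.39% fell as far, and the median was -0.10. Of 506 like windows 4.55% reached 1 and 2.17% fell as far. By part of the gap the log2 ratio was -1.34 (-1.65 to -1.02) for the vomeronasal part and -0.72 (-0.91 to -0.52) for the last 6 bins. The proximal sub-cluster and the gap differed less, with 1.11 and 1.10 and an interval of the log2 ratio from -0.24 to 0.23, but in uncorrected read pairs the values were 0.780 and 1.10, a log2 ratio of 0.49. The matrices differ in depth and in the share of contacts between chromosomes, and the part these play in the difference was not tested.

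A boundary, a dip in the contacts that cross a bin, was called inside or next to both sub-clusters. The insulation score was the log2 of the contacts in a square of 480 kb across the bin over the chromosome's mean. Chromosome 13 had 120 boundaries among 2867 scored bins in WT and 122 among 2845 in the Firre KO-labelled matrix. At the proximal sub-cluster both matrices had a boundary in the same bin, 60 kb inside the edge that faces the gap. Its strength was 2.09 in WT, where 94.2% of boundaries on the chromosome were no stronger. It was 1.72 in the Firre KO-labelled matrix, where 61.5% were no stronger. With a square of 960 kb the nearest boundary lay 100 kb inside that edge in WT. In the Firre KO-labelled matrix it lay 420 kb before it, beyond the sub-cluster. At the distal sub-cluster the boundary lay 140 kb inside the edge in WT, with a score of -2.03 and a strength of 2.7 that was the highest of 120 boundaries on chromosome 13. In the Firre KO-labelled matrix it had a score of -2.93 and a strength of 4.01, and 96.7% of the 122 boundaries there were no stronger. It lay 20 kb outside the edge in that matrix. That side of the edge was not stable, since the boundary lay 60 kb inside with a plain mean of the square and 20 kb inside with a square of 960 kb. The mean score over the distal histone bins was -1.66 in WT, and 0.244% of scored bins were as low, and it was -2.27 in the Firre KO-labelled matrix, where 2.95% were as low. The proximal bins had -1.04, with 3.10% of bins as low, and -0.94, with 15.4% as low, and the gap had 0.03 and -0.37. The Hist3 bin held a boundary in WT, and the nearest was 200 kb away in the Firre KO-labelled matrix. At the Hist2 cluster the nearest were 300 kb from its edges in WT and 340 kb in the Firre KO-labelled matrix. These calls depended on the square. With a square of 240 kb the boundary nearest the Hist3 bin lay 80 kb away in both matrices. With 960 kb it lay 400 kb away in WT and 320 kb in the Firre KO-labelled matrix. The square of 240 kb also put a boundary 20 kb inside the last edge of the Hist2 cluster in both.

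**Figure D4:**
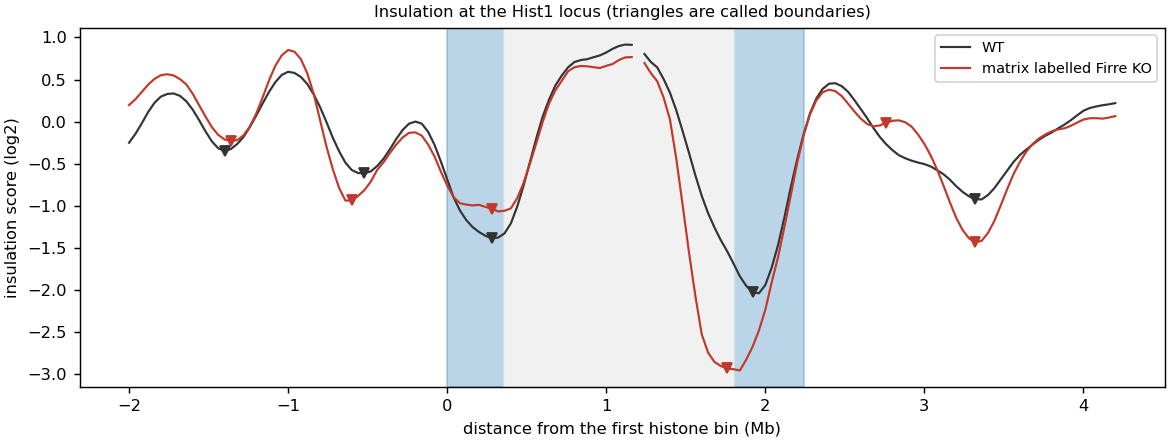
Insulation score (log2, square of 480 kb) around the Hist1 locus by distance in Mb from the first histone bin, WT and the Firre KO-labelled matrix; blue bands are the sub-clusters, the grey band is the gap, and triangles are called boundaries. Each sub-cluster holds or adjoins a dip, at 140 kb inside the gap-facing edge of the distal sub-cluster in WT and, with these settings, 20 kb outside it in the Firre KO-labelled matrix.

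Between chromosomes the histone clusters met more often than the average pair of bins of the same chromosomes, on very few read pairs. Expected values here are the mean corrected value of all kept bin pairs of the same 2 chromosomes. Over the 51 pairs of histone bins on different chromosomes, observed over expected was 16.1 in WT (4.71 to 63.8, 5 read pairs against 0.306 expected) and 12.9 in the Firre KO-labelled matrix (5.23 to 37.8, 8 read pairs against 0.574 expected), a log2 ratio of -0.32 (-2.04 to 1.40). With the product of the bins' totals as the expected value it was 9.88 and 8.06, and over all bins from the first to the last gene of each cluster 9.89 and 10.97, where the log2 ratio was 0.15. Over these pairs no change between the matrices was detectable at this depth, and the interval covers a wide range of changes in either direction.

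By cluster, Hist1 and Hist2 shared 3 read pairs in WT and 6 in the Firre KO-labelled matrix (16.7 and 12.9). Among 257604 like pairs of windows 27.0% and 26.0% reached 2, a value that a single read pair can exceed, and 0.366% and 0.158% were as high as the histone genes. All 3 WT read pairs fell in the Hist2 bin of Hist2h3c2 to Hist2h2bb, and they came from the bins of Hist1h4k to Hist1h2bp, Hist1h4h to Hist1h3f and Hist1h4f to Hist1h2be. Of the 6 in the Firre KO-labelled matrix, all were from the distal sub-cluster, and 2 came from the bin of Hist1h4f to Hist1h2be. Hist1 and Hist3 shared 2 read pairs in each matrix (18.2 and 16.3), where 13.0% and 19.1% of 222552 like pairs of windows reached 2, and 0.838% and 0.390% were as high. Hist2 and Hist3 shared 0 read pairs in both, against 0.0268 and 0.0482 expected, so that contact could not be measured in the histone bins themselves. Hist1h2al shared no read pair with Hist2 or Hist3 in either matrix. Clusters on different chromosomes also share sequence. The share of 36-base words near HindIII sites found in a cluster on another chromosome was at most 4.07% in any histone bin, 3.59% in the bin of Hist1h4f to Hist1h2be and 0.358% in the bin of Hist2h3c2 to Hist2h2bb, and its part in these contacts was not tested.

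The bins around the histone genes hold more counts. At 40 to 200 kb from the nearest pair of histone bins observed over expected was 4.75 (3.09 to 11.8, 32 read pairs) in WT and 3.07 (1.94 to 7.32, 30 read pairs) in the Firre KO-labelled matrix. At 240 to 600 kb it was 2.30 (1.74 to 4.04, 75 read pairs) and 1.61 (1.28 to 2.47, 98 read pairs), and at 640 to 1600 kb it was 1.82 (1.54 to 2.37, 290 read pairs) and 1.21 (1.08 to 1.49, 373 read pairs). The values thus fell with distance from the histone genes in both matrices, although the intervals of neighbouring steps overlap. These steps were not themselves set beside like bins. For scale, like pairs of windows by GC content and gene number averaged 1.42 in WT and 1.25 in the Firre KO-labelled matrix in the shape of Hist1 with Hist2, and 1.22 and 1.2 in that of Hist1 with Hist3. Pairs of windows with compartment scores of at least 1.06, more positive than those of the Hist1 sub-clusters, averaged 2.03 and 1.47, and 2.12 and 1.62. Over regions of histone bins extended by 400 kb on each side the contact was 3.55 (2.7 to 5.99, 74 read pairs) and 2.49 (1.93 to 3.97, 84 read pairs).

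**Figure D5:**
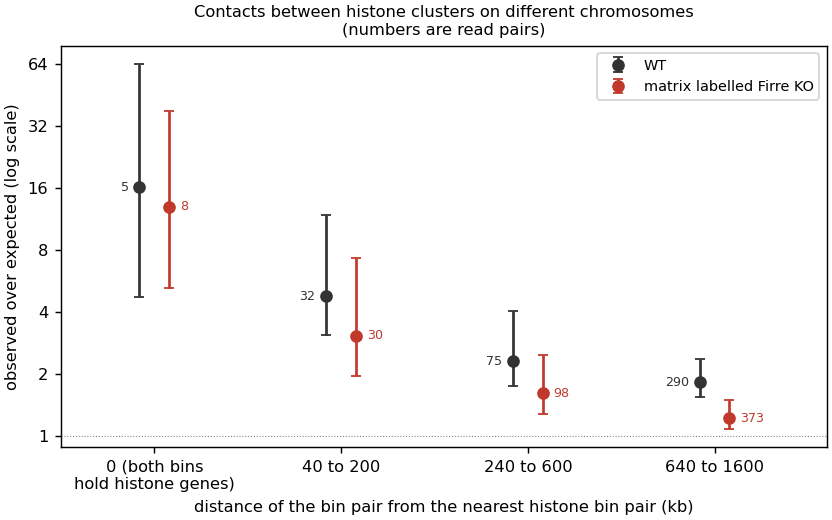
Observed over expected contacts (log scale) between histone clusters on different chromosomes, for pairs of histone bins and for bin pairs at increasing distance (kb) from them, in WT and the Firre KO-labelled matrix; bars are 95% counting intervals and numbers are read pairs. The values fall from 16.1 and 12.9 on 5 and 8 read pairs to 1.82 and 1.21 on 290 and 373.

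The gap served as a neighbour for comparison. It shared 2 read pairs in WT and 0 in the Firre KO-labelled matrix with Hist2, and 0 in both with Hist3. For the regions that follow, each sub-cluster was taken as all bins from its first to its last histone gene, those without histone genes included. With the Hist2 region of 400 kb on each side, the proximal sub-cluster had 11.8 (5.41 to 48.3, 12 read pairs) in WT and 2.37 (0.845 to 17.8, 6 read pairs) in the Firre KO-labelled matrix, the distal sub-cluster had 3.82 (1.31 to 24.1, 6 read pairs) and 8.95 (5.44 to 19.1, 24 read pairs), and the gap had 1.71 (0.723 to 15.9, 8 read pairs) and 1.31 (0.602 to 8.36, 11 read pairs). Among like windows 31.0% and 23.2% reached 2 for the proximal sub-cluster, 26.9% and 19.0% for the distal and 13.9% and 7.54% for the gap. With the Hist3 region the order was another. The proximal sub-cluster had 1.29 (0.146 to 15.1, 2 read pairs) and 2.97 (0.737 to 14.0, 4 read pairs), the distal sub-cluster 5.13 (2.31 to 13.5, 10 read pairs) and 0.819 (0.160 to 7.38, 3 read pairs), and the gap 1.54 (0.619 to 6.84, 8 read pairs) and 1.5 (0.674 to 6.31, 11 read pairs), and these intervals overlap throughout. Among like windows 22.8% and 21.9% reached 2 for the proximal sub-cluster, 19.0% and 15.6% for the distal and 8.9% and 4.63% for the gap. The Hist2 and Hist3 regions met at 3.61 (1.71 to 12.5, 12 read pairs) in WT and 1.38 (0.614 to 6.41, 9 read pairs) in the Firre KO-labelled matrix, where 47.1% and 39.5% of 161854 like pairs reached 2 and 15.8% and 62.3% were as high. Of the 7 region pairs 3 had an interval of the log2 ratio that left out 0 on counting error alone, at -2.32 (-3.83 to -0.81) for the proximal sub-cluster with Hist2, -2.65 (-4.57 to -0.72) for the distal one with Hist3, and -1.39 (-2.72 to -0.06) for Hist2 with Hist3. In the shapes of these 3, 46.7%, 49.2% and 31.1% of like pairs with read pairs in both matrices changed by at least 1 in either direction. Falls as far as these 3 were less frequent, since 93.1%, 95.5% and 89.3% of those like pairs had a log2 ratio at least as high. For Hist2 the sub-cluster with the higher value was the proximal one in WT and the distal one in the Firre KO-labelled matrix, on 6 to 24 read pairs each. Within each matrix the intervals of the sub-clusters with the Hist2 region overlap, so this order is not resolved. Stretches of chromosome 13 outside the locus were not all lower. In WT one near chr13:27080001 stood at 13.2 with the Hist2 region, above the proximal sub-cluster. In windows of 1 Mb over all other autosomes, the one with Hist2 ranked 13 of 2227 for contact with Hist1 in WT, on 7 read pairs, and 2 of 2220 in the Firre KO-labelled matrix, on 20, where 15.2% and 9.91% of windows reached 2. The window with Hist3 ranked 46 and 108. Seen from Hist2, the chromosome 13 window from 21000001 ranked 11 of 2187 in WT and 628 of 2179 in the Firre KO-labelled matrix. The next, from 22000001, shared 0 read pairs in both, that from 23000001 ranked 13 and 3, and that from 24000001 ranked 94 and 161. The Hist3 window ranked 898 and 887. Seen from Hist3, the Hist2 window ranked 134 of 2224 and 769 of 2216. The chromosome 13 window from 21000001 ranked 16 and 6, on 2 and 3 read pairs. Those from 22000001, 23000001 and 24000001 ranked lower, at 597, 380 and 272 in WT and 769, 583 and 769 in the Firre KO-labelled matrix. These ranks rest on few read pairs.

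The clusters' contacts with other chromosomes leaned toward bins of positive compartment score. Contact with bins of positive compartment score over contact with bins of negative score was 1.85 (1.59 to 2.15) in WT and 1.5 (1.36 to 1.66) in the Firre KO-labelled matrix for the proximal sub-cluster, 1.95 (1.78 to 2.14) and 1.92 (1.80 to 2.05) for the distal one, 3.50 (3.04 to 4.03) and 3.02 (2.73 to 3.34) for Hist2, and 2.18 (1.83 to 2.59) and 1.55 (1.35 to 1.78) for Hist3. For the gap it was 1.00 (0.955 to 1.06) and 0.740 (0.712 to 0.769). The ratio was above 1 for each histone cluster in both matrices, and highest for Hist2, whose compartment score of 1.64 was also the highest of the clusters. Hist3 had the lowest score, 0.294. In WT its ratio was nonetheless above those of both Hist1 sub-clusters, with overlapping intervals, and in the Firre KO-labelled matrix it lay between them. Other autosomal bins of positive score were not measured this way. A ratio above 1 is thus not shown to be particular to the histone clusters. The share of a bin's contacts that joined other chromosomes had a median of 18.3% in WT and 43.9% in the Firre KO-labelled matrix over the 16 histone bins of the clusters, against 17.7% and 38.6% over bins like them in GC content with at least 1 gene. The 3 Hist2 bins ran from 21.6% to 23.7% and from 44.5% to 50.6%.

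Histone genes outside the clusters and genes of the histone locus body were followed by lists. Of 13 variant and orphan histone genes, 3 reached 2 for contact with clusters on other chromosomes in WT and 3 in the Firre KO-labelled matrix, where 16.6% and 24.7% of all genes with a value did. In WT H2afj and Hist4h4 lie in the same bin and share 1 read pair, so the 3 genes are 2 places. Only H2afx, which encodes H2A.X, the variant phosphorylated at DNA breaks, did so in both, with 22.8 and 18.9 on 2 read pairs each, all with Hist1, where 5.52% of all genes and 8.07% of those in bins of positive compartment score reached 2 in both. Of 14 genes of the histone locus body and of histone RNA processing, 7 reached 2 in WT and 8 in the Firre KO-labelled matrix. Among genes in bins of positive compartment score 22.2% and 31.9% did. The median of the 14 was 1.31 and 2.55, and the median of all genes was 0 in both.

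In the second list 5 of 14 genes reached 2 in both matrices, and they rested on 1 to 4 read pairs each. Beside them stand 5.52% of all genes and 8.07% of those in bins of positive compartment score. Genes that overlap more bins have more chances of a read pair. Npat, Zfp473 and Ncbp1 had 32 bin pairs with the clusters against 16 for Lsm10, and the shares of all genes were not matched for this. Npat, which encodes the organiser of the histone locus body, stood at 6.06 in WT and 2.99 in the Firre KO-labelled matrix, on 1 read pair each. Lsm10 and Lsm11, which encode subunits of the U7 small nuclear RNP, stood at 16.6 and 3.19 and at 7.19 and 3.03. Zfp473, which encodes a zinc finger protein of that complex, stood at 3.84 on 1 read pair and 8.27 on 4, and Ncbp1, which encodes the large subunit of the cap-binding complex, at 4.47 and 4.87. Slbp shared no read pair with a cluster in either matrix, and neither did Sympk, Cpsf2 or Cstf2, which encode subunits of the cleavage machinery. At this depth 0 read pairs does not show that a contact is absent.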

How the data were processed

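In situ Hi-C libraries of male mESCs, 2 technical libraries for each of 2 genotypes, had been mapped to mm9 and binned by the authors with HiC-Pro (version 2.7.8 in the submitters' processing notes). The deposited values are a signal: contacts per pair of 40 kb bins after iterative correction, with the libraries of a genotype pooled in 1 matrix. Dividing a value by the weights of its bins returns the read pairs behind it (100% within 0.05 of a whole number), 65611035 in WT and 46635652 in the Firre KO-labelled matrix. The members and lists were chosen with earlier results of these data known.

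Clusters are runs of members at most 500 kb apart. Expected values were means over kept bin pairs at the same distance on chromosome 13, or of the same 2 chromosomes. Intervals (95%) are gamma intervals of weighted Poisson counts, and log2 ratios use the delta method; they cover counting error only, since read pairs are not independent molecules. With 1 matrix per genotype no test was made, and each value is set beside windows of the same shape on the autosomes (at least 80% of bins kept). The windows were slid along the chromosomes and overlap, so counts of windows are not counts of separate places. Like windows had a GC content within 2 percentage points and a gene number in the upper quartile, with like bins in place of windows holding at least 1 gene. The alternative by compartment took scores of at least 1.06, the median of the positive scores. Compartment scores came from WT contacts in bins of 200 kb and were used for both matrices. On each chromosome the leading component most correlated with gene number was taken. This was done separately in each matrix, so the component can differ between them. Scores computed from each matrix correlated with r = 0.446 on chromosome 13, the lowest of the autosomes. Insulation followed the study's methods (square 480 kb, delta span 320 kb). Genes named in full are the first and last of each sub-cluster, all members on other chromosomes, those of the 3 highest bin pairs, and list genes that reached 2 in both matrices; Abt1, Btn1a1, Btn2a2, Hist1h2be, Hist1h1e, Slbp, Sympk, Cpsf2, Cstf2, H2afj, Hist4h4 and the genes of bins without members were chosen after their values were seen. Sequences were read from mm9, whose chromosome lengths equal those of the deposited bins; for 61 of 69 members the RefSeq promoter table (GRCm38.p6) holds an entry, all by synonym, and it was not used. Analyses ran in Python 3.11.15 with numpy 2.4.6, scipy 1.17.1 and pandas 2.3.3, and were tested on simulated data. Alternatives changed the correction, bins, expected values, like windows, insulation settings and lists.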

Additional observations from a re-analysis of the deposited data

How the results depend on the processing

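Of 90 values under alternatives for 38 results, 64 stayed within their counting interval or tolerance, 24 moved by more and 2 reversed, where reversed means that a value whose interval leaves out no change crossed to the other side. Both were the contacts within the proximal sub-cluster. The log2 ratios between the sub-clusters, within the proximal one, between it and the gap, and between chromosomes also changed sign, the last to 0.06 in uncorrected read pairs and 0.15 over all bins, but their intervals cover 0. In uncorrected read pairs the contact between the Hist1 sub-clusters was 4.11 in WT, with a log2 ratio of 0.26. Over all bins from the first to the last gene it was 3.35 in WT and 3.34 in the Firre KO-labelled matrix. With sub-clusters divided at gaps of 200 kb, which leaves the bin of Hist1h2ah to Hist1h2bj as the proximal arm, it was 8.34 and 3.68 (log2 -1.18). Without the bins of most shared sequence, an alternative chosen after seeing the data, it was 4.04 in WT (log2 0.40). Between chromosomes, regions extended by 400 kb, also chosen after seeing the data, gave 3.55 and 2.49, and 0.502% of pairs of windows with compartment scores of at least 1.06, which the Hist1 sub-clusters do not reach, were as high as Hist1 with Hist2 in WT. Uncorrected read pairs, added after seeing the data for the other blocks, gave 0.881 within the distal sub-cluster in the Firre KO-labelled matrix (log2 -0.26), 0.780 between the proximal sub-cluster and the gap in WT (log2 0.49), 0.692 and 0.776 within the proximal sub-cluster (log2 0.17), 1.27 and 1.07 within the gap (log2 -0.26), and 4.98 for the bin of Hist1h2ah to Hist1h2bj with the distal sub-cluster in the Firre KO-labelled matrix (log2 -0.60). In that matrix the boundary nearest the gap-facing edge of the proximal sub-cluster lay at -420 kb with a square of 960 kb, and that of the distal sub-cluster at 60 kb with a plain mean and 20 kb with a square of 960 kb, on the other side of the edge. The cause was not tested, except that fewer or other bins enter where bins were changed. No paired analysis was possible because the libraries of each genotype were pooled in 1 matrix, and for the same reason no library could be left out. Like windows with arms of positive and a middle of negative compartment score, also chosen after seeing the data, left 0 as high. Depth limits the contacts between chromosomes, which rest on 5 and 8 read pairs.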
